A study of Drosophila melanogaster with 3 samples.

Results

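The genes described are nompC, CG3280 and DCX-EMAP, 3 of the 10457 gene symbols counted in larval sense organ cells of Drosophila melanogaster. They were taken by their row names from the 3 count tables, because earlier results of the same data had drawn attention to them, so their levels and their co-detection are descriptions with no test. All 3 tables belong to 1 group, cells of peripheral chemosensory organs of third-instar larvae, in 3 replicate libraries. Per the labels' protocols, organs with a fluorescent label were picked by hand, dissociated with enzymes and processed with DisCo, a droplet method for small cell samples in which beads carry barcodes. The strain, the driver of the label and the number of larvae pooled are not given in the sources used here. Nothing says that the libraries came from separate dissections, so the spread between them may be technical. The sample titles also carry suffixes that the labels do not explain, and these were not used.

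Mechanosensory neurons turn the bending of a sensory dendrite into a current through channels at its tip. In flies many of these dendrites are modified cilia packed with microtubules, and the channel, the microtubules and the extracellular cap are mechanically coupled. The nompC gene (FBgn0016920, chromosome arm 2L) encodes the TRPN channel of gentle touch, hearing and locomotor feedback, whose ankyrin repeats tether it to microtubules. Tmc (FBgn0267796, arm 3L) encodes a transmembrane channel-like protein, known in flies for larval proprioception and for sensing food texture. DCX-EMAP (FBgn0259099, arm 3L) encodes a microtubule-associated protein with doublecortin and EMAP domains, needed in flies for transduction and amplification in chordotonal and campaniform receptors. It is not a channel. CG3280 is an older symbol, joined with CG14177 into Tmc in current annotation. CG14177 had 0 rows in the tables, so CG3280 was taken to stand for part of Tmc. No annotated gene overlapped nompC or DCX-EMAP. Tmc overlaps 4 genes, 2 on its own strand and 2 on the other, of which only CG3222 had a row, with 0, 0 and 1 counts in replicates 1, 2 and 3.

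The libraries differed widely, and all values below are read against that. Barcodes with at least 200 genes were kept, 61, 214 and 231 in replicates 1, 2 and 3, with 497492, 654062 and 345621 counts. No kept barcode was shared between libraries (0 in each pair). Median counts per kept barcode were 3337, 521.5 and 513, and the deepest barcode alone held 23.0%, 24.1% and 34.3% of the counts. The 10 listed neuron markers summed to 109, 6148 and 12343 counts per 1000000 (CPM). The glia markers stood at 595, 3740 and 472 CPM, the epidermis markers at 418, 112 and 60.8, and the tracheal markers at 559, 6.12 and 11.6. Muscle markers stood at 239, 59.6 and 122 CPM, sensillum support cell markers at 60.3, 102 and 86.8, hemocyte markers at 4.02, 4.59 and 40.5, and fat body markers at 0, 1.53 and 5.79. None of the 5 salivary gland markers had a row. The neuron marker sum was therefore lowest in replicate 1 and highest in replicate 3, where nrv3, a sodium pump subunit gene, made up 6588 CPM of it. The markers did not all follow the sum, since elav had 44.3 CPM in replicate 2 and 11.6 in replicate 3, brp 119 and 26.0, and cpx 384 and 367. Their part in the levels of the 3 genes was not tested. Scrublet called 22 barcodes of replicate 3 doublets, and these held 37 of the 59 nompC counts, 2 of the 3 CG3280 counts and 154 of the 285 DCX-EMAP counts of that library. They also held a large part of all its counts. Of its 345621 counts, the barcodes not called held 166192 with at least 2 neuron markers and 27347 with fewer. Fewer cells of a type and less RNA per cell cannot be told apart in library sums. Intervals are exact 95% Poisson intervals for counts and exact Clopper-Pearson intervals for shares, and they cover counting error only.

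The channel gene nompC was counted mainly in replicate 3. It had 4, 0 and 59 counts in replicates 1, 2 and 3. This made 8.04 CPM in replicate 1 (interval 2.19 to 20.6) and 171 CPM in replicate 3 (interval 130 to 220), while in replicate 2 a count of 0 allowed up to 4.59 CPM. Counts fell in 4 of 61, 0 of 214 and 19 of 231 barcodes, which is 6.56%, 0% (up to 1.40% allowed) and 8.23% (interval 5.02 to 12.5). The intervals of the level in replicates 1 and 3 did not overlap. The mean was 59.6 ± 96.3 CPM (SD, n = 3), so the spread between libraries exceeded the mean. Without the barcodes called doublets the mean was 38.7 ± 64.9 CPM, and without the deepest barcode of replicate 3 and those within 4 edits of it 22.7 ± 32.7 CPM.

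DCX-EMAP, the microtubule-associated protein gene, lay in replicate 3 almost wholly. It had 0, 8 and 285 counts in replicates 1, 2 and 3. The count of 0 in replicate 1 allowed up to 6.03 CPM, and the level was 12.2 CPM in replicate 2 (interval 5.28 to 24.1) and 825 CPM in replicate 3 (interval 732 to 926). It was counted in 0 of 61 barcodes of replicate 1, 4 of 214 of replicate 2 (1.87%) and 55 of 231 of replicate 3 (23.8%, interval 18.5 to 29.8). The mean over libraries was 279 ± 473 CPM (SD, n = 3). It was 229 ± 388 CPM without the barcodes called doublets and 156 ± 261 CPM without the deepest barcode of replicate 3 and those within 4 edits of it. Replicate 3 was higher than both others beyond counting error.

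CG3280 was near the limit of counting in every library. It had 1, 1 and 3 counts in replicates 1, 2 and 3, each in a barcode of its own, at 2.01, 1.53 and 8.68 CPM. The intervals reached 11.2, 8.52 and 25.4 CPM and overlapped throughout, so no difference between libraries was detectable at this depth. The mean was 4.07 ± 4.0 CPM (SD, n = 3).

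**Figure D1:**
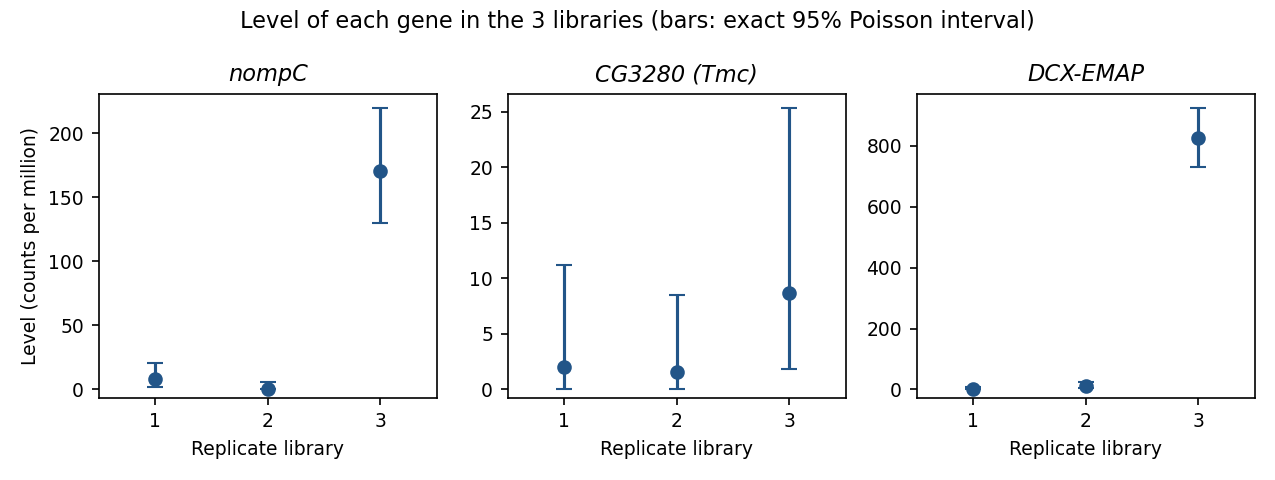
Level of nompC, CG3280 (part of Tmc) and DCX-EMAP in CPM (y axis, a scale of its own for each gene) in replicate libraries 1 to 3 (x axis), with exact 95% Poisson intervals as bars. nompC at 171 CPM and DCX-EMAP at 825 CPM stand above the other libraries in replicate 3, while the intervals of CG3280 overlap.

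Gathering in a single library was common in these data. Of 3200 genes with at least 50 counts, 28.1% had at least 90% of their summed CPM in 1 library, and the median gene had 73.5% there. Replicate 3 held 95.5% of the summed CPM of nompC and 98.5% of that of DCX-EMAP. Among the 3200 genes, 18.8% were gathered at least as strongly as nompC and 10.9% at least as strongly as DCX-EMAP. For CG3280, with 5 counts in all, the share was 71.0%. The genes with at least 90% of their CPM in replicate 3 numbered 175, which is 5.47% of the 3200. Besides nompC and DCX-EMAP, the listed genes among them were Rim and nSyb, a presynaptic scaffold gene and the neuronal synaptobrevin gene.

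Within replicate 3 the share of barcodes with each gene followed depth. nompC was counted in 4 of 194 barcodes with 200 to fewer than 500 genes (2.06%), in 6 of 27 with 500 to fewer than 1000 genes (22.2%) and in 9 of 10 with at least 1000 genes. DCX-EMAP was counted in 31 (16.0%), 15 (55.6%) and 9 of the same barcodes. CG3280 was counted in 3 of the 10 deep barcodes and in 0 of the others. Median counts per barcode in the 3 classes were 461.5, 1405 and 7081.

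The level also differed between the depth classes. nompC stood at 39.9 CPM (interval 10.9 to 102), 120 CPM (interval 43.9 to 261) and 251 CPM (interval 186 to 332) from the shallow to the deep class. DCX-EMAP stood at 369 CPM (interval 260 to 509), 798 CPM (interval 570 to 1087) and 1065 CPM (interval 925 to 1220). For both genes the interval of the deep class lay above that of the shallow class, and the middle class overlapped the deep class. Each class was 1 set of barcodes of 1 library, so there is no replicate of this order. Apart from the barcodes with 21551, 14713 and 4353 counts, the deep class held only the deepest barcode and barcodes within 4 edits of it. Those outside had 0, 3 and 1 nompC counts, at 0, 204 and 230 CPM. Their DCX-EMAP counts were 9, 25 and 0, at 418, 1699 and 0 CPM. Depth and likeness in sequence to the deepest barcode therefore went together in the deep class, and their separate parts in the levels were not tested.

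Thinning each barcode to 395 counts left 171 of the 231 barcodes of replicate 3 and removed much of the range. The expected share with nompC was then 3.07%, against 11.1% of the same barcodes before thinning, and that with DCX-EMAP was 14.4%, against 28.1%. By depth class the thinned shares of nompC were 2.14%, 4.28% and 12.3%, and those of DCX-EMAP were 11.3%, 22.6% and 34.8%. The order of the classes was that of the levels in CPM. For CG3280 the thinned share was 0.0612%, too low to read. In the other libraries thinning left 0.167% for nompC in replicate 1 and 1.07% for DCX-EMAP in replicate 2.

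**Figure D2:**
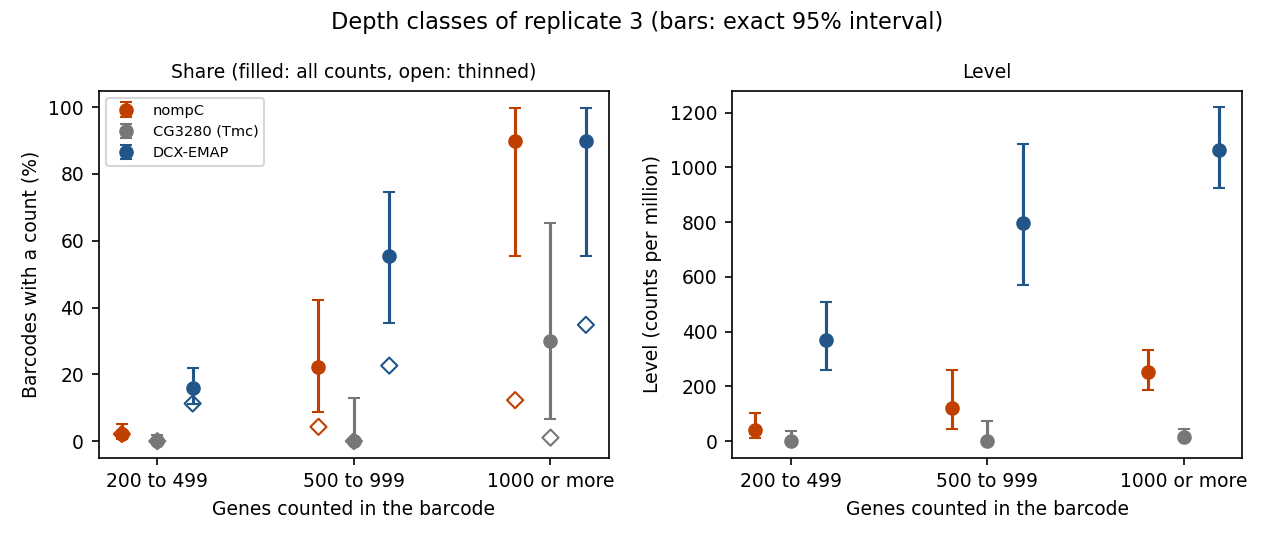
Replicate 3 by depth class (x axis, genes counted per barcode). Left, share of barcodes with a count in percent, filled circles from all counts with exact 95% intervals and open diamonds after thinning to 395 counts; right, level in CPM with exact 95% intervals. nompC was counted in 4 of 194, 6 of 27 and 9 of 10 barcodes of the classes, and thinned shares run from 2.14% to 12.3%.

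In the other libraries the counts were few. All 4 nompC counts of replicate 1 lay in barcodes with at least 1000 genes, 1 count in each of 4 of the 24 such barcodes. Of these counts, 1 lay in the second deepest barcode and 2 in barcodes within 4 edits of it. Of the 8 DCX-EMAP counts of replicate 2, 6 lay in 2 of its 29 deep barcodes, 2 in 2 of its 160 shallow ones and 0 in the class between. A single deep barcode, with 6849 counts in all, held 4 of the 8, at 584 CPM. The CG3280 count of replicate 1 lay in a deep barcode and that of replicate 2 in a shallow one.

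Counts of nompC and DCX-EMAP in replicate 3 were gathered in its deepest barcode and in barcodes with a similar sequence. The deepest barcode, with 118614 counts, held 28 of the 59 nompC counts (47.5%, interval 34.3 to 60.9), 128 of the 285 DCX-EMAP counts (44.9%, interval 39.0 to 50.9) and 1 of the 3 CG3280 counts, beside 34.3% of all counts. The interval of nompC reached down to its share of all counts and that of DCX-EMAP lay above it. Of 1105 genes with at least 50 counts in the library, the median had 38.5% of its counts there. At least as large a share as that of nompC was held by 13.8% of those genes, and as that of DCX-EMAP by 23.3%.

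The barcodes next in depth did not carry the genes alike. The second deepest, with 21551 counts, had 0 nompC counts where 3.68 would be in proportion to depth, and 9 DCX-EMAP counts where 17.8 would be. The third, with 14713 counts, had 3 nompC counts and 25 DCX-EMAP counts, against 2.51 and 12.1 in proportion. The fourth and the fifth, with 8275 and 7360 counts, had 6 and 5 nompC counts, against 1.41 and 1.26 in proportion, and 6 and 8 DCX-EMAP counts, against 6.82 and 6.07. Each of them also had 1 CG3280 count. Both lay 3 edits from the deepest barcode. The eighth, with 4353 counts and 8 edits away, had 1 nompC count and 0 DCX-EMAP counts.

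The deepest barcode and the 17 barcodes within 4 edits of it were set against the other 213 barcodes of replicate 3, a grouping chosen after the values were seen. The 18 held 179412 counts, which is 51.9% of the library, with a median of 3336 counts per barcode, against 484 in the other 213. At least 2 neuron markers were counted in 18 of the 18 and in 147 of the 213. nompC had 49 counts and 273 CPM in the 18 (interval 202 to 361), against 10 counts and 60.2 CPM in the others (interval 28.9 to 111). DCX-EMAP had 209 counts and 1165 CPM in the 18 (interval 1012 to 1334), against 76 counts and 457 CPM in the others (interval 360 to 572). All 3 CG3280 counts lay in the 18, at 16.7 CPM, and the 0 counts in the others allowed up to 18.05 CPM, so no difference was detectable at this depth. For nompC and DCX-EMAP the intervals of both sets did not overlap.

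Those 18 barcodes held 83.1% of the nompC counts, a share reached by 2.08% of the 1105 genes, and 73.3% of the DCX-EMAP counts, reached by 17.9%. The median gene had 59.0% there. nompC was counted in 11 of the 18 barcodes and in 8 of the 213 others, and after thinning the expected shares were 8.42% in the 18 and 2.44% in the others. DCX-EMAP was counted in 16 of the 18 and in 39 of the 213, and after thinning in 41.3% of the 18 and 11.3% of the others. The 17 near barcodes alone stood at 345 CPM for nompC (interval 214 to 528), against 236 CPM in the deepest barcode itself (interval 157 to 341). The level of nompC in the near barcodes therefore did not differ from that in the deepest one beyond counting error. How many cells the 18 barcodes stand for was not tested, so they are not counted as separate observations.

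**Figure D3:**
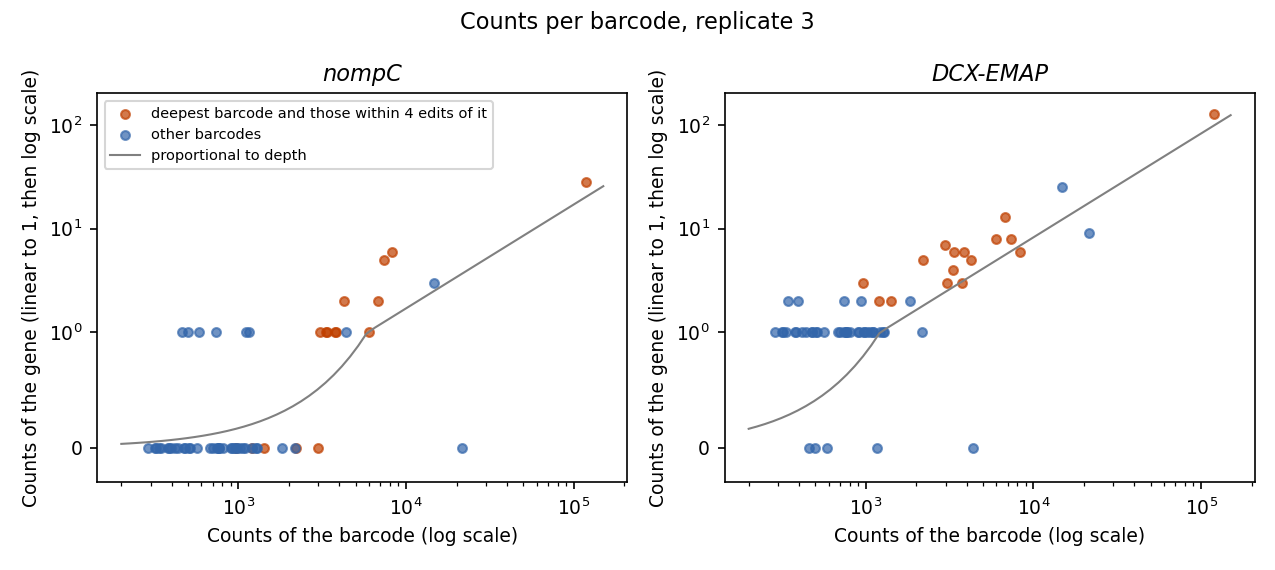
Counts of nompC (left) and DCX-EMAP (right) per barcode (y axis, linear to 1, then log) against all counts of the barcode (x axis, log), for the barcodes of replicate 3 with a count of either gene. Red points are the deepest barcode and those within 4 edits of it, blue points the others, and the grey line is the number in proportion to depth; the rightmost point has 28 nompC and 128 DCX-EMAP counts.

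Most barcodes with either gene held a single count of it. Of the 19 barcodes with nompC in replicate 3, 13 had exactly 1 count, as did 32 of the 55 with DCX-EMAP. Spread in proportion to depth, the counts of nompC would reach 30.5 barcodes and those of DCX-EMAP 95.4. The observed numbers were 0.622 and 0.577 of these. The median ratio over the 1105 genes was 0.861, and 12.5% and 7.60% of the genes had a ratio at or below those of nompC and DCX-EMAP.

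nompC and DCX-EMAP were counted together in 14 barcodes of replicate 3, and in 0 of replicates 1 and 2. The 14 are 73.7% of the 19 barcodes with nompC and 25.5% of the 55 with DCX-EMAP. Independent detection over all kept barcodes would give 4.52, a number that takes no account of depth. Within the depth classes from shallow to deep the pair was seen in 1, 5 and 8 barcodes, and independent detection within each class would give 0.639, 3.33 and 8.10. After thinning, 1.16 of 171 barcodes would be expected to keep both. Of the 14 barcodes, 11 were the deepest or within 4 edits of it and 3 were not. All 3 CG3280 barcodes of replicate 3 also carried nompC and DCX-EMAP. They held 7360, 8275 and 118614 counts, and 2.7 shared barcodes of each pair would follow from independent detection among the 10 deep barcodes.

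Barcodes with nompC or DCX-EMAP alone were shallower by their medians than those with both. The 5 with nompC but no DCX-EMAP all had 1 nompC count and lay outside the set around the deepest barcode, with a median of 585 counts. The 41 with DCX-EMAP but no nompC had a median of 769 counts, and 36 of them lay outside. The 14 with both had a median of 4034.5 counts and between 4 and 10 neuron markers each.

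The ratio of both genes did not differ between the pooled barcode sets below beyond counting error. In all kept barcodes of replicate 3, nompC made up 17.2% of the summed nompC and DCX-EMAP counts (interval 13.3 to 21.6). It made up 17.9% in the deepest barcode (interval 12.3 to 24.9) and 16.5% in all the others (interval 11.5 to 22.6). Over the 3 depth classes from shallow to deep it was 9.76% (interval 2.72 to 23.1), 13% (interval 4.94 to 26.3) and 19.1% (interval 14.5 to 24.4). All these intervals overlap, and the sets are not separate, since the deep class includes the deepest barcode. Single deep barcodes varied. The second deepest had 0 nompC and 9 DCX-EMAP counts, the third 3 and 25, and the fourth 6 and 6. A constant ratio across barcodes is therefore not shown. The share is not a ratio of transcript levels, because the counts are not scaled to gene length.

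**Figure D4:**
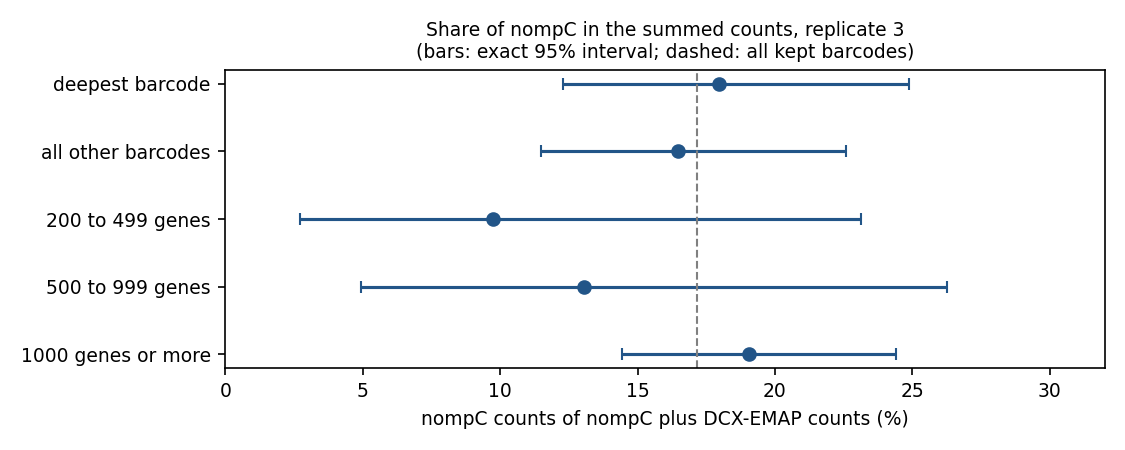
Share of nompC in the summed counts of nompC and DCX-EMAP in replicate 3, in percent (x axis), for the deepest barcode, all others and the 3 depth classes (y axis). Bars are exact 95% intervals and the dashed line is the 17.2% of all kept barcodes, which every interval includes.

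Barcodes with counts of at least 2 of the 10 neuron markers were then set against the other barcodes of the same library. In replicate 3, nompC had 59 counts and 187 CPM in the 165 neuron-marker barcodes. In the 66 others a count of 0 allowed up to 102 CPM. It was counted in 19 of 165 barcodes (11.5%) and in 0 of 66. DCX-EMAP had 275 counts and 870 CPM in the neuron-marker barcodes (interval 770 to 979), against 10 counts and 340 CPM in the others (interval 163 to 626), and was counted in 45 of the 165 neuron-marker barcodes (27.3%) and 10 of the 66 others (15.2%). CG3280 had 3 counts in the neuron-marker barcodes and 0 in the others. Median counts per barcode were 600 in the neuron-marker barcodes and 396.5 in the others.

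The 2 sets also differed in depth. All 66 barcodes without 2 neuron markers were in the shallow class. Among barcodes of that class, DCX-EMAP stood at 381 CPM and 16.4% of 128 neuron-marker barcodes, against 340 CPM and 15.2% of the 66 others. The share of shallow neuron-marker barcodes with DCX-EMAP is thus close to that in barcodes with fewer than 2 markers, and no enrichment is read from it. Most counts of those others lie in barcodes with 1 marker, since barcodes with none held 4890 of the 29386. The shares therefore do not compare barcodes with and without the markers. nompC stood at 56.5 CPM and 3.13% of the 128, against 0 in the 66. Over all depths and after thinning, DCX-EMAP was expected in 15.3% of neuron-marker barcodes and 10.9% of the others. In replicate 1, nompC had 3 counts and 10.7 CPM in neuron-marker barcodes, against 1 count and 4.63 CPM in the others. In replicate 2, DCX-EMAP had 7 counts and 11.2 CPM in neuron-marker barcodes, against 1 count and 31.6 CPM in the others.

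In edgeR's quasi-likelihood test of the class sums of each library, with the library as a block, DCX-EMAP had a log2 fold change of 1.51 ± 0.96 (SE, n = 3 libraries) between neuron-marker barcodes and the rest, at a Benjamini-Hochberg adjusted p of 0.998. Its unadjusted p was 0.117, and DCX-EMAP was the only one of the 3 genes that passed the filter on low counts. Replicate 1 had 0 DCX-EMAP counts in both classes, so only replicates 2 and 3 bear on this fold change. By CPM replicate 2 ran the other way, with 1 count in the rest. The neuron markers aside, 3452 genes were tested and 0 had an adjusted p under 0.05, so the background of calls was 0%. At an unadjusted p under 0.05 there were 124, and DESeq2 called 14, all lower in the neuron-marker barcodes. The neuron markers that entered the test define the classes, yet none of them passed. Their edgeR adjusted p ran from 0.104 (CadN, nrv3 and para) to 0.998 (nSyb), at log2 fold changes of 4.66 for CadN and 1.57 for nSyb. A gene that did not pass, here or in the gene lists below, is therefore not shown to be alike in both classes. The median log2 fold change of all genes was 0.18 with edgeR's scaling and -0.03 with DESeq2's size factors in edgeR. Without the filter nompC had a log2 fold change of 3.49 ± 1.49 (SE, n = 3 libraries) at an edgeR adjusted p of 0.938. That value depends on the prior count because classes with a count of 0 enter it. Replicate 2 had 0 nompC counts in both classes, so only replicates 1 and 3 bear on it. CG3280 had -0.09 ± 2.52 without the filter, at an edgeR adjusted p of 0.989.

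Barcodes of replicate 3 with a count of the genes carried more neuron marker counts. The markers summed to 16971 CPM in the 19 barcodes with nompC and to 14894 CPM in the 55 with DCX-EMAP, against 6356 CPM in the 171 with neither. At least 2 neuron markers were counted in 19 of 19, 45 of 55 (81.8%) and 115 of 171 (67.3%). Glia markers summed to 281 CPM with nompC and 351 CPM with DCX-EMAP, against 780 CPM with neither. Median counts per barcode were 3754, 973 and 460. Depth moves with all of these, and its part was not tested.

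Other genes of mechanosensation were listed for comparison, most of them with few counts. Of 17 other mechanosensory channel genes listed, 13 had a row, and 10, 8 and 8 were counted in replicates 1, 2 and 3, summing to 90.5, 414 and 339 CPM. Of the 4 that entered the neuron-marker test, pain, Piezo, ppk and ppk26, 0 passed (adjusted p 0.998 each in edgeR). The ppk gene, a degenerin subunit of nociceptive multidendritic neurons, had 3, 63 and 0 counts in replicates 1, 2 and 3. The TRPA gene pain had 1, 64 and 0, and the stretch-gated channel gene Piezo had 24, 33 and 1. Cib2, whose mammalian counterpart binds TMC proteins, had 0, 27 and 1 counts. The chordotonal TRPV gene nan had 4, 1 and 1 counts, and its partner iav had 0, 0 and 1. Thus ppk, pain, Piezo and Cib2 had their most counts in replicate 2, where nompC had 0. For Piezo the levels of replicates 1 and 2 were close, at 48.2 and 50.5 CPM.

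Besides the single count of iav, ppk26 was the only listed channel gene with its largest count in replicate 3. It encodes the partner subunit of ppk and had 0, 57 and 109 counts in replicates 1, 2 and 3. Within replicate 3 it was distributed otherwise than nompC and DCX-EMAP. In the 18 barcodes around the deepest it had 27 counts and 150 CPM (interval 99.2 to 219), against 82 counts and 493 CPM in the 213 others (interval 392 to 612). All 27 lay in the deepest barcode. The 17 near barcodes, with 60798 counts, had 0 ppk26 counts, while they had 21 of nompC and 81 of DCX-EMAP. ppk26 stood at 228 CPM in the deepest barcode (interval 150 to 331), and the 0 counts in the near ones allowed up to 49.3 CPM. For ppk26 that limit lay below the interval of the deepest barcode, whereas the intervals of nompC overlapped.

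**Figure D5:**
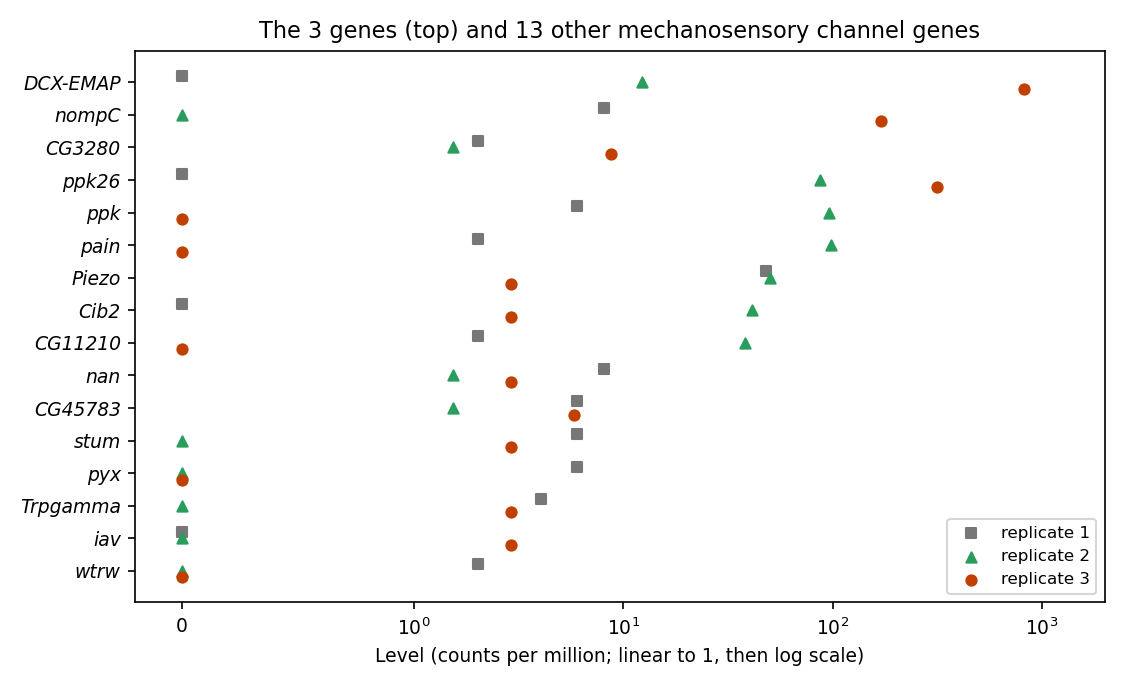
Level in CPM (x axis, linear to 1, then log) of the 3 genes (top) and of 13 other mechanosensory channel genes (rows below) in replicate 1 (squares), 2 (triangles) and 3 (circles). nompC and DCX-EMAP have their highest value in replicate 3, at 171 and 825 CPM, while pain, ppk and Cib2 are highest in replicate 2. Piezo is at 48.2 and 50.5 CPM in replicates 1 and 2. Levels are not scaled to gene length and are not compared between genes.

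Genes of the sensory cilium and dendrite had their highest summed level in replicate 2. Of 20 listed, 17 had a row, and 7, 15 and 10 were counted in replicates 1, 2 and 3, at 22.1, 1121 and 778 CPM in sum. Of the 8 that entered the test, 0 passed (edgeR adjusted p 0.998 each). BBS4, a subunit of the ciliary BBSome coat, had 3, 281 and 189 counts and made up most of the sum in replicate 3. eys, which encodes the extracellular spacer protein of insect sensilla, had 1, 103 and 12 counts. BBS8 had 0, 65 and 0, and Oseg6, an intraflagellar transport gene, had 0, 27 and 33. The intraflagellar dynein heavy chain gene btv had 0, 61 and 9 counts. In replicate 3 all 9 btv counts lay in the 18 barcodes around the deepest, in 7 of them, at 50.2 CPM (interval 22.9 to 95.2), against 0 in the 213 others. BBS4 stood at 669 CPM in the 18, against 415 CPM in the others, and Oseg6 at 61.3 CPM in the 18, against 132 CPM in the others. nompA, made by support cells and part of the dendritic cap, had 3, 7 and 14 counts, 2 of the 14 in the 18 barcodes and 12 in the others.

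All 9 listed microtubule genes had a row, and 9, 9 and 8 were counted in replicates 1, 2 and 3, at 8263, 28872 and 14559 CPM. All 9 entered the test and 0 passed (edgeR adjusted p 0.998 each). In replicate 3 alphaTub84B stood at 5903 CPM in the 18 barcodes around the deepest (interval 5552 to 6269), against 4693 CPM in the other 213 (interval 4369 to 5034), and these intervals do not overlap. betaTub56D stood at 5986 CPM in the 18 (interval 5634 to 6355), against 5637 CPM in the others (interval 5282 to 6010), and these overlap. stai, the stathmin gene, stood at 2926 CPM in the 18, against 1456 CPM in the others, and Eb1, whose product binds growing ends, at 1115 CPM in the 18, against 662 CPM in the others. Jupiter, a microtubule-associated protein gene, stood at 201 CPM in the 18 (interval 141 to 278), against 42.1 CPM in the others (interval 16.9 to 86.8). The spectraplakin gene shot stood at 39.0 CPM in the 18 (interval 15.7 to 80.4), against 223 CPM in the others (interval 157 to 307). Over the libraries Jupiter ran otherwise than DCX-EMAP, with 437, 88 and 43 counts in replicates 1, 2 and 3. Neuron markers moved with the same split. Relative to the level in the other 213, that in the 18 was 1.60-fold for nSyb, 1.90 for Rim, 2.39 for nrv3, 2.44 for futsch, 2.53 for cpx, 2.73 for Syt1, 2.81 for para and 2.87 for CadN. brp ran the other way, at 16.7 CPM in the 18 and 36.1 CPM in the others, and elav had 4 counts in the 18 and 0 in the others. The same ratio was 2.55 for DCX-EMAP, within the range of the neuron markers, and 4.54 for nompC. Their part in the split was not tested.

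The genes most alike in pattern were sought over the 63 barcodes with at least 1000 genes, among 4242 genes, by the Pearson correlation of log2(counts per 10000 + 1) centred within each library. For nompC they were Tace (r = 0.701), beta4GalNAcTA (0.682), CR44321 (0.620), nAChRalpha3 (0.592) and CG31510 (0.591). Tace encodes a metalloprotease, beta4GalNAcTA a glycosyltransferase and nAChRalpha3 an acetylcholine receptor subunit. For DCX-EMAP they were oaf (r = 0.762), CG33111 (0.755), CG14961 (0.755), TBPH (0.754) and tipE (0.746), where TBPH encodes an RNA-binding protein and tipE an auxiliary subunit of the voltage-gated sodium channel. For CG3280, with 4 counts in 4 of the 63 barcodes, Tace (0.842), nAChRalpha3 (0.726), beta4GalNAcTA (0.712), Rbsn-5 (0.708) and CG32069 (0.705) ranked first, which is weak ground. The lists of nompC and DCX-EMAP shared 0 genes, and those of nompC and CG3280 shared 3. The 10 deep barcodes of replicate 3 held 49 of the 53 nompC counts and 208 of the 214 DCX-EMAP counts of the 63. The correlations of both genes therefore rest mainly on those 10 barcodes, most of them the deepest or within 4 edits of it.

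Between nompC and DCX-EMAP the correlation over the 63 barcodes was 0.157. Only the 10 deep barcodes of replicate 3 could show the genes varying together. The deep barcodes of replicate 1 had 0 DCX-EMAP counts and those of replicate 2 had 0 nompC counts. DCX-EMAP ranked 582 of 4241 genes by likeness to nompC, and nompC ranked 786 by likeness to DCX-EMAP. Many of the 63 barcodes share a library and lie within a few edits of each other, and counts per gene are few. The values are descriptions.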

How the data were processed

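Transcripts of dissociated larval sense organ cells were counted in 3 libraries of 1 group, with group and replicate number taken from the labels. The deposited tables hold raw whole-number counts, with gene symbols in rows and 12-base barcodes in columns, per the file headers. STAR 2.7.0 and Seurat 3.1.2 are named in the submitters' processing notes, with no role. The counter, its strand setting, the genome build, the annotation and any collapsing of copies are not given in the sources used here, so values are counts and not molecules, and no coordinates are given. FlyBase identifiers, chromosome arms and overlaps come from a separate gene annotation of Drosophila melanogaster in GTF format. Older symbols come from the RefSeq gene table. No table listed a gene without a count, so a gene with no row was taken as 0.

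The 3 genes, the gene lists and the tests were chosen with earlier results of these data known. Barcodes with at least 200 genes were kept, 506 of 1369. Total counts were 508018, 689416 and 369432 in replicates 1, 2 and 3, and CPM were computed over the summed kept barcodes of a library. For a count of 0 the limit is set at 3 counts of the total. Thinned shares are exact hypergeometric expectations at 395 counts, the 25th percentile of kept barcodes, and 125 shallower barcodes were left out. Scrublet in scanpy 1.11.5 called 21, 59 and 22 barcodes doublets, and these were not removed. Intervals were computed with scipy 1.17.1.

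The contrast of neuron-marker barcodes with the rest used R 4.3.3 and the glmQLFit and glmQLFTest functions of edgeR 4.0.16, after filterByExpr and with TMM scaling and Benjamini-Hochberg adjustment. The SE printed with an edgeR fold change is the absolute log2 fold change divided by the square root of the quasi-likelihood F statistic. The library was a block because both sums come from 1 suspension, and with 1 such pair per library the pairing rests on that. DESeq2 1.42.0 was an alternative. Other alternatives were a minimum of 500 genes or none, leaving out the 3 deepest barcodes of each library or doublets, adding barcodes within 3 edits to a deeper one, other thinning depths, 1 or 3 neuron markers, other scaling, no filter, no block, and leaving out each library. Genes named were the 3 genes, for each the 5 most correlated over deep barcodes, and the 5 with most counts of the lists of channels, cilium and microtubule genes. The neuron markers, nan, iav, nompA and shot were named beyond that rule, after their values were seen. The scripts were tested on simulated data.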

Additional observations from a re-analysis of the deposited data

Results flagged for a closer look

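DCX-EMAP was also counted in barcodes with fewer than 200 genes, which only the alternative with no minimum of genes used. In replicate 3 it had 4 counts in 4 of 325 such barcodes, at 168 CPM (exact 95% interval 45.8 to 430), against 0 counts in the 234 such barcodes of replicate 1 and 0 in the 304 of replicate 2. nompC had 1 count in such barcodes in each of replicates 1 and 3.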

How the results depend on the processing

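In the neuron-marker contrast no alternative that gave DCX-EMAP a value turned its direction or brought it past the threshold. The minimum of 500 genes could not decide the direction, at a log2 fold change of 1.20 ± 4.30 (SE). It left 0 counts in the replicate 3 class with fewer than 2 neuron markers, so that library had no contrast there. The median log2 fold change of all genes did change sign: it was 0.18 as reported, -0.21 with DESeq2, -0.03 with its size factors in edgeR and -0.05 without the 3 deepest barcodes. The log2 fold change of DCX-EMAP lay between 0.44 (DESeq2) and 3.15 (at least 1 neuron marker), with adjusted p between 0.414 and 1. With at least 500 genes required, the mean share of barcodes became 17.1% for nompC, 22.9% for DCX-EMAP and 3.6% for CG3280 (0.102% for CG3280 at equal depth). The mean share of CG3280 was 0.411% with no minimum and 0.450% without the 3 deepest barcodes of each library. Thinned to 1000 counts the mean shares were 4.99% for nompC, 17.3% for DCX-EMAP and 0.237% for CG3280, and thinned to 200 counts CG3280 had 0.0915%. Barcodes with nompC and DCX-EMAP, with CG3280 and nompC, and with CG3280 and DCX-EMAP numbered 3, 1 and 1 after barcodes within 3 edits were added to a deeper one. They numbered 9, 1 and 1 without doublets, 3, 0 and 0 without the deepest barcode of replicate 3 and those within 4 edits of it (an alternative chosen after seeing the data), and 1.16, 0.0253 and 0.0324 after thinning to 395 counts. Leaving out each library in turn gave 0 to 14, 0 to 3 and 0 to 3, with 0 without replicate 3. Without replicate 3 the mean levels were 4.02 CPM for nompC, 6.12 for DCX-EMAP and 1.77 for CG3280, so their means rest on that library. Genes called numbered 4 with at least 1 neuron marker, 13 with at least 3, 14 with DESeq2 and 11 with DESeq2 size factors in edgeR. On leaving out a library they numbered 0 to 6 (6 without replicate 1, 2 without replicate 2). Those higher in the neuron-marker class numbered 4 with at least 1 marker, 1 with at least 3, and 0 with DESeq2 or its size factors. They numbered 2 without replicate 1 and 1 without replicate 2, and the other called genes were lower. Without the replicate block 0 of 1927 genes were called, and DCX-EMAP did not pass the filter on low counts there or without replicate 3. The cause of these shifts was not tested. CG3280 rests on at most 5 counts under every setting.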
